A study of Glycine max with 12 samples.

Results

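The response of soybean flowers to heat alone was measured in 6 of the 12 RNA-seq libraries of the series, 3 from plants subjected to heat stress (HS) and 3 from control plants (CT). The plants were soybean (Glycine max) of the cultivar Magellan, inoculated with Bradyrhizobium japonicum, the bacterium that forms nitrogen-fixing nodules on soybean roots. They were grown with a 12 h day, for 16 to 18 d under 1000 μmol photons per square metre and second, until the opening of the first flower, and were then divided among 4 growth chambers. CT plants stayed at a day temperature of 28°C and HS plants were kept at 38°C by day for 10 d. The temperature was ramped up and down each day, and the nights of HS plants (28°C) were warmer than those of CT plants. Both groups were well watered, so that temperature was the one factor that was set apart between them. Closed whole flowers that had developed during the treatment were collected, and each library was made from a pool of 30 to 40 flowers from 8 to 10 plants. Replicates therefore measure the spread between pools, and since each treatment had its own chamber, an effect of the chamber cannot be told apart from an effect of the temperature. The 6 other libraries came from plants given 30.0% of the water available for transpiration at 28°C (WD) or at 38°C (WD + HS), and they served here as a set of libraries, none shared with HS and CT, in which the same rise of temperature could be measured again. All 38410 genes that passed a filter on low counts, of 55897 in the table, were followed.

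Heat unfolds proteins, and cells answer with the heat shock response. Heat shock transcription factors (HSFs) bind to the promoters of chaperone genes, and the chaperones that follow hold unfolded proteins in solution (the small heat shock proteins), fold them again (HSP70 and HSP90, with J-domain and other co-chaperones) or pull them out of aggregates (HSP101). Flowers are among the most heat-sensitive organs of crop plants, and pollen development is known for its sensitivity. Heat also changes growth through light and hormone signalling, in Arabidopsis through the phytochrome interacting factors PIF4 and its relatives.

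Between 15336041 and 22415845 reads per CT library and between 17588574 and 19855460 per HS library were counted on genes. Levels are given as CPM, the counts of a gene scaled to a common effective library size, which are not scaled for gene length. The CPM of replicates correlated (log scale, across 38410 genes, which are not independent replicates) with r between 0.983 and 0.987 within CT and between 0.987 and 0.988 within HS, against 0.954 to 0.959 between CT and HS libraries. The biological coefficient of variation was 0.133. The CT libraries differed among themselves in 2 ways that touch the results. Over CT replicates 1, 2 and 3, the 14 HSP70, HSP90 and HSP101 genes together reached 581, 641 and 1055 CPM, so that replicate 3 stood apart. A group of transcripts on chromosome 13 had high sums in CT replicates 1 and 2, WD replicate 3 and WD + HS replicate 3 (344, 539, 113 and 421 CPM). Its sum was low in every other library, CT replicate 3 included (19.7 to 32.3 CPM). For most genes named, the values of all 3 replicates are therefore given. MADS-box genes, among them regulators of floral organs and of flowering time, were detected, with a summed level of 49.5 to 58.5 CPM in CT. In bulk flowers, fewer cells of a type and less RNA per cell cannot be told apart.

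Heat changed the transcript level of 12230 genes (31.8% of those tested; edgeR quasi-likelihood test, Benjamini-Hochberg adjusted p under 0.05), and rises and falls were equally frequent. A total of 6096 genes (15.9%) were higher in HS and 6134 (16.0%) were lower. Most changes were small. The median absolute log2 fold change of the called genes was 0.61, 9517 of them (77.8%) changed by less than 2-fold, and 2713 (7.06% of all tested) changed by at least 2-fold, 1337 (3.48%) upwards and 1376 (3.58%) downwards. At least 4-fold rises were counted for 350 genes and 4-fold falls for 299. The HS and CT libraries did not overlap in 5901 of the genes called higher and in 5892 of those called lower, while groups of 3 and 3 did not overlap in 45.9% of all genes tested. The share of genes called rose with the level, from 10.5% under 1 CPM to 63.5% at 100 CPM or more, so that depth limits what could be called among weakly expressed genes. On the deposited FPKM values (fragments per kilobase of transcript, scaled to the library's depth) tested with limma, 6901 genes were higher and 4262 lower, a share of higher genes of 61.8% in place of 49.8%.

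Seen as a share of the RNA pool, the genes called higher held 18.8%, 18.7% and 19.4% of the reads in the CT libraries and 28.4%, 29.2% and 28.8% in the HS libraries. The genes called lower went from 33.0%, 33.4% and 32.0% to 22.1% in each HS library. The at least 2-fold risers grew from 1.23%, 1.23% and 1.30% of the reads to 3.65%, 3.73% and 3.64%. The genes were chosen for these differences, which describe their size.

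The heat response was found again in the water-deficit libraries. Of the 12230 genes called in HS against CT, 11539 (94.3%) changed in the same direction in WD + HS against WD, and 7304 (59.7%) were also called there in that direction, where 13.7% of all genes were called higher and 16.4% lower. A call in the opposite direction was made for 68. The 350 genes that rose at least 4-fold in HS had a median log2 fold change of 2.66 in HS against CT and of 1.66 in WD + HS against WD, and 327 of them (93.4%) had the same sign in both. The 299 genes that fell at least 4-fold had medians of -2.68 and -1.73, and 232 of them (77.6%) had the same sign in both. All these genes were chosen for a large value in the first comparison, so the difference between the medians is a description only. The difference between the heat effects, tested as an interaction, was called for 441 of the 12230 genes (3.61%), against 2.95% of all genes tested (0.497% with a higher and 2.45% with a lower heat effect under water deficit).

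**Figure D1:**
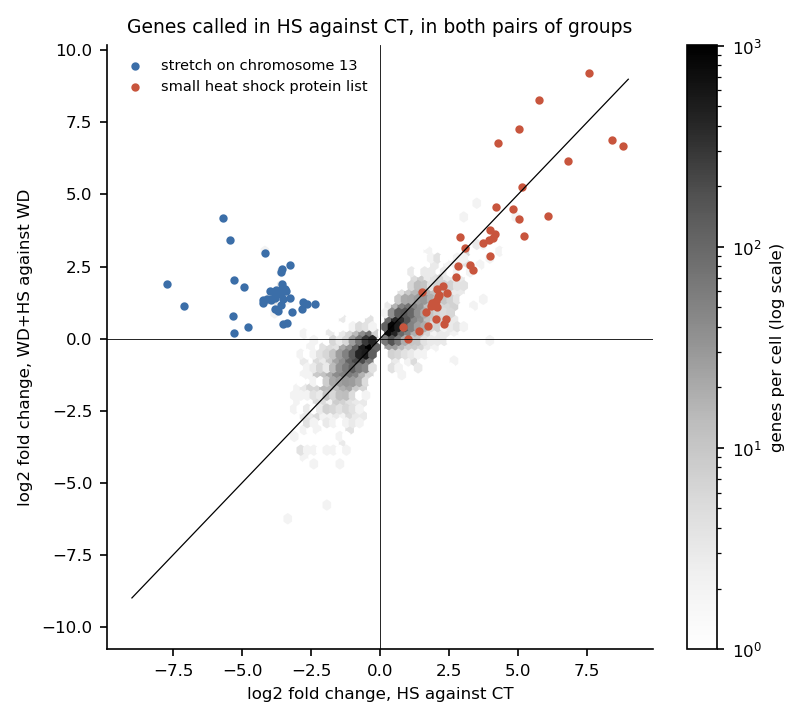
Log2 fold change in HS against CT (x axis) and in WD + HS against WD (y axis) of the 12230 genes called in HS against CT, with the number of genes per hexagon as shade (log scale), a line of equal values, and the small heat shock protein genes (red) and the called genes of a stretch of chromosome 13 (blue) as points. Most genes have the same sign on both axes (11539 of 12230), and the 40 chromosome 13 genes are below 0 on the x axis and above 0 on the y axis.

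Gene groups were formed by words in the descriptions that the study paired with 2464 identifiers, of which 2420 were tested. These descriptions were given for genes that the study itself had called changed in these samples, mostly upwards, so that the direction of a group is not independent evidence. Of the described genes 69.2% were called in either direction, against 29.3% of the genes without a description. Among the described genes 56.2% were called higher and 13.1% lower, with a median log2 fold change of 0.83, against 15.9% and 16.0% and a median of 0.01 for all genes tested. Counts in each group are to be read against the shares of the described genes. Genes of the same kinds that had no description entered no group.

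**Figure D2:**
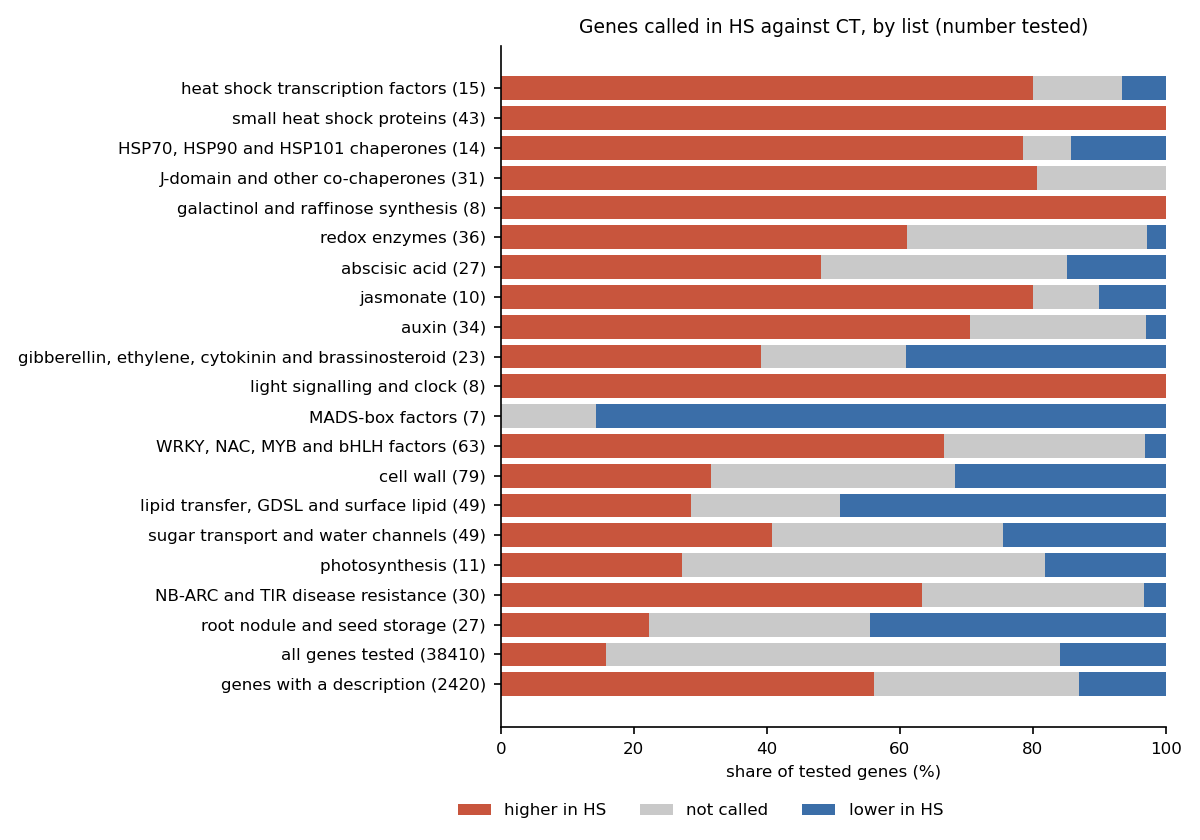
Share (%) of the tested genes of each group, with the number tested in parentheses, that were called higher in HS (red), called lower (blue) or not called (grey), beside all genes tested and the described genes. The small heat shock proteins (43 genes), the galactinol and raffinose genes (8) and the light genes (8) are red throughout, and the MADS-box genes (7) have no red.

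HSFs are the regulators of the heat shock response, and of 15 tested genes described as HSFs 12 rose, 1 fell and 2 were not called. Among described genes 56.2% were called higher and 13.1% lower. The median log2 fold change of the group was 1.02, and its summed level went from 103, 113 and 132 CPM in CT to 348, 309 and 299 CPM in HS. Much of this came from HSFA2, which in Arabidopsis is strongly induced by heat and prolongs the response. HSFA2 (GLYMA_17G227600 on chromosome 17) had 1.69, 1.68 and 0.606 CPM in CT and 95.9, 82.1 and 79.0 CPM in HS. All HS libraries lay far above all CT libraries. The rise on the log2 scale was 5.98 ± 0.23 (SE, n = 3 pools per group; adjusted p = 1.6e-13, edgeR). The HSFA2 gene GLYMA_14G096800 had 9.32, 12.7 and 14.2 CPM in CT and 74.0, 70.7 and 66.8 CPM in HS. It rose by 2.54 ± 0.16 on the log2 scale (adjusted p = 2.48e-10, edgeR). The other two genes described as HSFA2 behaved differently from these. GLYMA_17G053700 went from 4.95, 3.21 and 2.30 to 6.22, 7.72 and 6.39 CPM, a smaller rise (0.96 ± 0.23, adjusted p = 0.00328, edgeR). GLYMA_04G052000 had 36.2, 48.2 and 58.4 CPM in CT and 62.8, 48.2 and 53.7 CPM in HS, where the groups overlapped and no change was called (adjusted p = 0.455, edgeR). Scaled for length, that last gene had the highest mean of the 4 in CT (24.0 FPKM) and GLYMA_17G227600 the highest in HS (60.7 FPKM).

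Among the other HSF genes, all 3 genes described as HSFA6B and 1 of the 2 described as HSFA3 rose. HSFA6B (GLYMA_19G159500) went from 2.61, 1.36 and 2.85 to 6.50, 7.92 and 6.39 CPM and HSFA6B (GLYMA_10G029600) from 7.75, 8.15 and 10.6 to 17.7, 18.6 and 19.5 CPM. HSFA3 (GLYMA_03G191100), which in Arabidopsis acts downstream of drought signalling, went from 1.63, 1.09 and 0.848 to 3.00, 4.45 and 4.08 CPM, a log2 fold change of 1.70 ± 0.36 (adjusted p = 0.000965, edgeR). HSFA1D (GLYMA_16G091800), in Arabidopsis one of the factors that start the response, went from 4.89, 2.67 and 3.33 to 7.63, 6.84 and 5.45 CPM (0.88 ± 0.25, adjusted p = 0.0096, edgeR), and the call was lost without CT replicate 2 (0.69, adjusted p = 0.0647, edgeR). HSFB4 (GLYMA_14G083700), the gene that fell, had 1.30, 0.453 and 0.788 CPM in CT and 0, 0.311 and 0.0983 CPM in HS. That call (adjusted p = 0.0334, edgeR) was lost when any of CT replicates 1 and 3 and HS replicates 1 and 3 was left out, with adjusted p between 0.0618 and 0.14 (edgeR).

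The small heat shock proteins, which bind unfolding proteins and keep them soluble, were the group with the largest rise. All 43 tested genes of 45 listed were called higher, against 56.2% of described genes. In all 43 every HS library lay above every CT library, against 45.9% of all genes without overlap. Their median log2 fold change was 3.10, with a range from 0.84 to 8.82. Their summed level was 662, 759 and 922 CPM in CT and 3963, 4064 and 3509 CPM in HS, a 4.92-fold rise of the mean sum. In WD + HS against WD, 39 of the 43 were called higher and 0 lower, with a median of 2.57.

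**Figure D3:**
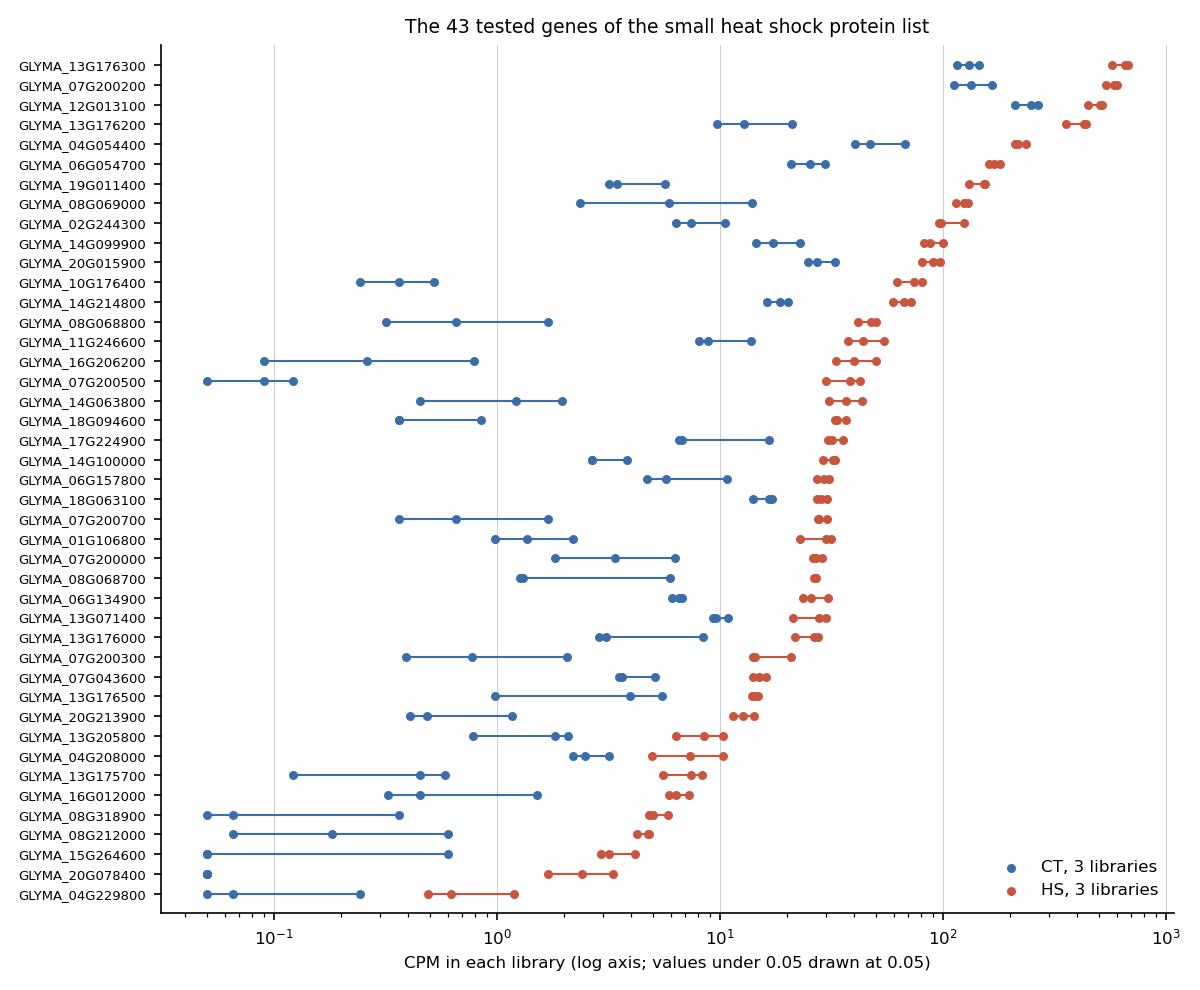
Level of each of the 43 tested small heat shock protein genes in CPM on a log axis, with 1 point per library for the 3 CT and 3 HS libraries. Genes are ordered by their mean level in HS, values under 0.05 CPM are drawn at 0.05, lines span the 3 libraries of a group, and in each gene the HS points lie to the right of the CT points.

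The members differed in how they reached the high level. Some were almost silent in CT. GLYMA_07G200500 had 0, 0.0906 and 0.121 CPM in CT and 38.4, 42.6 and 29.8 CPM in HS. The CT libraries held 4 reads of it in all, against 2108 in HS, a 495.7-fold ratio of pooled levels, for which an exact 95% interval was 193.3 to 1821 and covers counting error only. GLYMA_10G176400 went from 0.521, 0.362 and 0.242 to 80.1, 73.8 and 62.0 CPM, a log2 fold change of 7.57 ± 0.18 (adjusted p = 9.22e-17, edgeR). GLYMA_16G206200 went from 0.261, 0.0906 and 0.788 to 50.02, 39.9 and 33.0 CPM, a log2 fold change of 6.82 ± 0.34 (adjusted p = 6.76e-12, edgeR). The gene described as heat shock protein 21, a chaperone of the chloroplast (GLYMA_18G094600), had 0.847, 0.362 and 0.364 CPM in CT and 36.8, 33.6 and 32.7 CPM in HS. GLYMA_20G078400 had 0 reads in each CT library and 1.70, 3.31 and 2.41 CPM in HS, at least 8.69-fold higher than the level of 3 reads per library.

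Others had a high level already at 28°C and rose from there. Scaled for length, the 3 small heat shock protein genes with the highest HS means were GLYMA_07G200200 (732 FPKM), GLYMA_13G176300 (727 FPKM) and GLYMA_12G013100 (591 FPKM), and the same genes had 166, 145 and 269 FPKM in CT. GLYMA_13G176300 had 116, 131 and 144 CPM in CT and 674, 657 and 570 CPM in HS, a log2 fold change of 2.28 ± 0.11 (adjusted p = 6.16e-12, edgeR). The mitochondrial member GLYMA_12G013100 had 211, 249 and 268 CPM in CT and 508, 517 and 445 CPM in HS, a log2 fold change of 1.01 ± 0.17 (adjusted p = 0.000101, edgeR). Its level did not move with temperature in the same way under water deficit, where the WD libraries had 289, 133 and 189 CPM and the WD + HS libraries 206, 173 and 222 CPM, and the difference between both heat effects was called (log2 difference -1.03, adjusted p = 0.0178, edgeR). The smallest rise of the group was that of GLYMA_18G063100, from 17.1, 16.6 and 14.1 to 27.2, 28.3 and 30.2 CPM. The call of GLYMA_04G229800, with at most 0.242 CPM in CT and at most 1.19 CPM in HS, was lost without CT replicate 1, CT replicate 2 or HS replicate 1 (adjusted p between 0.0878 and 0.121, edgeR).

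Several small heat shock protein genes lie side by side, as their identifiers show. The largest of these groups were 5 genes between GLYMA_13G175700 and GLYMA_13G176500 on chromosome 13, with a summed level of 130, 152 and 180 CPM in CT and 1152, 1143 and 967 CPM in HS, and 5 genes between GLYMA_07G200000 and GLYMA_07G200700 on chromosome 7, with 115, 138 and 176 CPM in CT and 693, 724 and 636 CPM in HS. Neighbours differed in the size of their rise. On chromosome 7 the log2 fold changes ran from 2.07 to 8.82, and on chromosome 13 from 2.03 to 4.81, where GLYMA_13G176200 went from 9.71, 12.9 and 21 to 429, 438 and 355 CPM. How reads shared by such similar neighbours were counted is not given in the sources used here, so that the split between neighbours is less certain than their sum.

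The genes that encode the large chaperones rose with the small ones, with 11 of 14 tested genes called higher, 2 lower and 1 not called. The median log2 fold change was 1.84, and among described genes 56.2% were called higher and 13.1% lower. Summed over the 14 genes, the level was 581, 641 and 1055 CPM in CT and 2665, 2785 and 2409 CPM in HS. The largest rises were those of the genes described as HSP70B. GLYMA_17G072400 had 10.7, 8.74 and 13.6 CPM in CT and 323, 350 and 291 CPM in HS, a log2 fold change of 4.88 ± 0.13 (adjusted p = 3.7e-16, edgeR). GLYMA_02G205600 went from 2.28, 5.57 and 4.18 to 106, 108 and 87.6 CPM, a log2 fold change of 4.6 ± 0.24 (adjusted p = 1.19e-11, edgeR). HSP90.1 (GLYMA_09G131500) had 124, 146 and 241 CPM in CT and 795, 872 and 730 CPM in HS, and the HSP90.1 gene GLYMA_16G178800 had 87.6, 110 and 171 CPM in CT and 523, 558 and 492 CPM in HS. These rose by 2.23 ± 0.22 (adjusted p = 1.74e-07) and 2.09 ± 0.19 (adjusted p = 4.52e-08, both edgeR) on the log2 scale. Casein lytic proteinase B3 (GLYMA_08G242100), the disaggregating chaperone of the chloroplast, went from 21.3, 23.3 and 26.7 to 106, 110 and 99 CPM.

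Members of the same description went different ways. Of the genes described as HSP101, the disaggregating chaperone of the cytosol, GLYMA_05G022200 had 35.9, 39.3 and 77.6 CPM in CT and 194, 189 and 168 CPM in HS and rose (1.85 ± 0.19, adjusted p = 2.56e-07, edgeR). GLYMA_06G202200 had 71.3, 74.6 and 191 CPM in CT and 124, 120 and 103 CPM in HS. There CT replicate 3 lay above all HS libraries and CT replicates 1 and 2 below them, no change was called (0.04 ± 0.30, adjusted p = 0.941, edgeR), and the sign changed with the CT library left out. Heat shock cognate protein 70-1 (GLYMA_18G289100), of a family that is expressed without stress, was lower in HS, with 98.8, 115 and 196 CPM in CT and 51.1, 49.3 and 46.5 CPM in HS (-1.48 ± 0.22, adjusted p = 2.76e-05, edgeR). Its relative GLYMA_18G289600 was higher, with 31.7, 17.7 and 16.2 CPM in CT and 79.0, 75.8 and 77.5 CPM in HS. The gene described as heat shock protein 70 (GLYMA_18G287900) was the other lower member, at 2.54, 3.26 and 3.39 CPM in CT and 1.58, 1.86 and 1.57 CPM in HS, a call near the threshold (adjusted p = 0.0447, edgeR) that was lost when any of 5 of the 6 libraries was left out, CT replicate 1 being the exception. The level of CT replicate 3 was above that of CT replicates 1 and 2 in HSP90.1, HSP101 and HSC70-1 (GLYMA_18G289100) alike, and its part in these results was not tested beyond leaving it out.

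**Figure D4:**
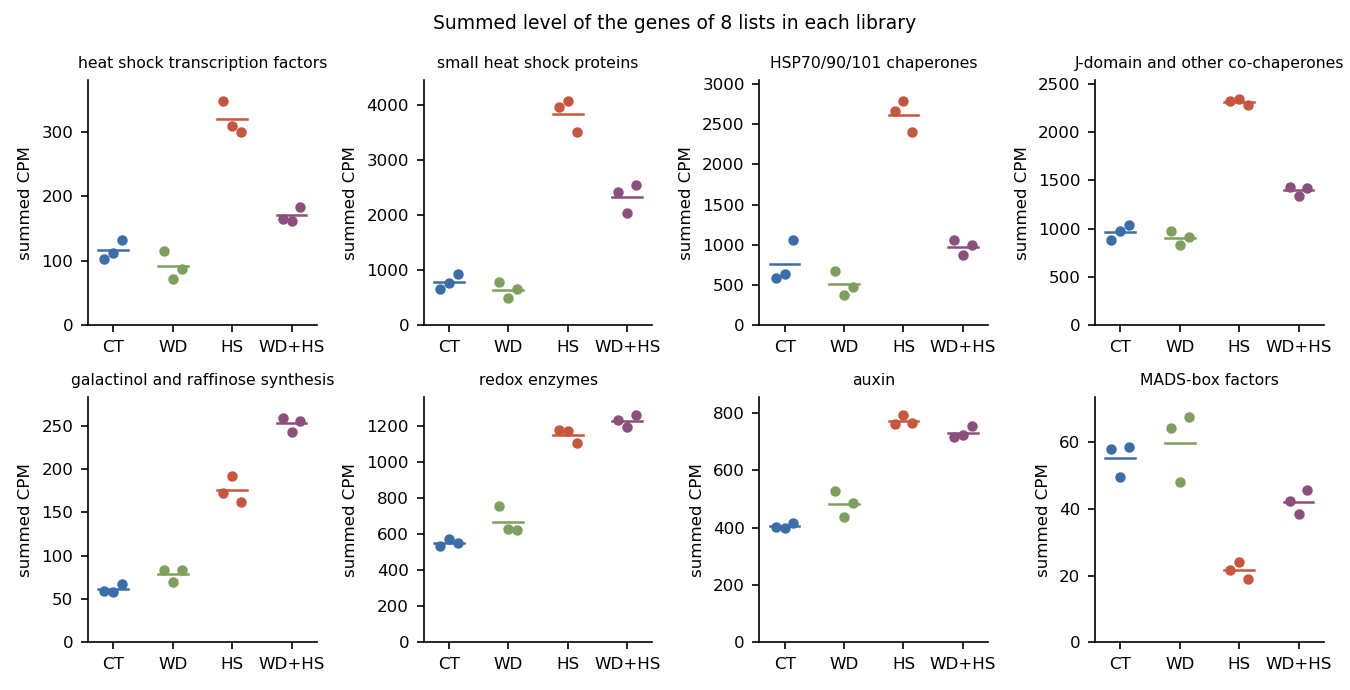
Summed CPM of 8 gene groups in each of the 12 libraries (points) and the mean of the 3 libraries of a treatment (lines). The sum of the HSP70, HSP90 and HSP101 genes is higher in CT replicate 3 (1055 CPM) than in the other CT libraries and higher still in the 3 HS libraries (2409 to 2785 CPM), and the MADS-box sum is lowest in HS (19.0 to 24.1 CPM).

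Co-chaperones hand unfolded proteins to HSP70 and HSP90 or release them. Of 31 tested genes 25 rose, 0 fell and 6 were not called, against 56.2% higher and 13.1% lower among described genes. The median log2 fold change of the group was 0.96, against 0.83 for described genes. Among 22 J-domain genes, which stimulate HSP70, 18 rose, and the largest of these was GLYMA_15G077700, from 0.521, 1.13 and 3.76 to 23.5, 25.3 and 21 CPM (3.70 ± 0.36, adjusted p = 1.25e-07, edgeR). All 3 FKBP-type peptidyl-prolyl isomerases, which in plants bind HSP90, were higher. GLYMA_08G106700 went from 8.14, 5.80 and 9.03 to 80.1, 92.6 and 86.8 CPM (3.51 ± 0.14, adjusted p = 2.86e-13, edgeR), and GLYMA_05G149900 from 167, 185 and 229 to 702, 716 and 601 CPM.

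The BCL-2-associated athanogene genes, whose BAG domain binds HSP70, split by type. BAG6, in Arabidopsis a stress-induced calmodulin-binding member, had the largest rises of all co-chaperones. GLYMA_16G030000 had 0.521, 0.453 and 0 CPM in CT and 22.9, 20.6 and 25.3 CPM in HS (6.08 ± 0.33, adjusted p = 2.96e-11, edgeR), and GLYMA_07G061500 had 0.977, 0.724 and 2.36 CPM in CT and 52.6, 54.3 and 47.3 CPM in HS (5.28 ± 0.23, adjusted p = 1.01e-12, edgeR). The BAG5 genes were decided by single libraries. GLYMA_18G285100 had 8.93, 10.1 and 34.7 CPM in CT and 20.9, 22 and 20.5 CPM in HS, with no call (0.25 ± 0.33, adjusted p = 0.607, edgeR), and it was called higher without CT replicate 3 (1.15, adjusted p = 0.000391, edgeR). GLYMA_18G284900 (11.8, 13.7 and 28.5 CPM in CT, 31.0, 34.2 and 31.4 CPM in HS) was called, but not without CT replicate 1 or CT replicate 2 (adjusted p = 0.0686 and 0.0673, edgeR). BAG2 (GLYMA_13G220500) had 6.32, 6.88 and 7.33 CPM in CT and 4.35, 4.19 and 5.95 CPM in HS and was not called (-0.50 ± 0.23, adjusted p = 0.109, edgeR).

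Galactinol and the raffinose sugars made from it accumulate in many plants under stress and protect membranes and proteins, and galactinol synthase makes the first step. All 8 tested and described genes of this pathway rose, against 56.2% of the described genes as a whole. The group had a median log2 fold change of 1.96 and a summed level of 59.3, 58.5 and 67.7 CPM in CT and 172, 192 and 162 CPM in HS. Galactinol synthase 1 (GLYMA_19G219100) had 7.10, 7.43 and 11.8 CPM in CT and 52.1, 54.2 and 46.1 CPM in HS (2.54 ± 0.22, adjusted p = 2.12e-08, edgeR). Its relative GLYMA_20G094500 went from 15.6, 14.5 and 13.7 to 28.7, 34.7 and 27.5 CPM. Raffinose synthase (GLYMA_06G179200) went from 2.22, 1.45 and 2.24 to 26.7, 30.8 and 25.8 CPM (3.84 ± 0.21, adjusted p = 2.2e-11, edgeR), and stachyose synthase (GLYMA_19G217700) from 5.02, 3.85 and 7.15 to 17.7, 18.7 and 16.9 CPM. The raffinose synthase gene GLYMA_05G003900 moved little, from 19.6, 17.5 and 19.6 to 23.6, 26.5 and 21.1 CPM, and its call was lost without CT replicate 2 or HS replicate 2 (adjusted p = 0.0889 and 0.108, edgeR).

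Enzymes that handle reactive oxygen and oxidised products rose in 22 of 36 cases and fell in 1, against 56.2% higher and 13.1% lower among described genes. The median log2 fold change of the group was 1.04, against 0.83 for described genes. Glutathione S-transferases, which couple glutathione to reactive compounds, gave 9 of the 22 rises among 14 tested, with no fall. GST TAU 19 (GLYMA_15G251600) went from 104, 120 and 113 to 374, 348 and 304 CPM (1.60 ± 0.09, adjusted p = 2.9e-11, edgeR), and the gene GLYMA_19G177200 of the same family from 91.9, 91.7 and 83.9 to 265, 275 and 242 CPM. The largest rise in the group was that of GLYMA_11G099400, from 0.261, 0.226 and 0.727 to 5.82, 4.87 and 5.6 CPM, which is described as a thioredoxin-like splicing factor and not as a redox enzyme. The gene that fell, GLYMA_11G075000, encodes a lactoylglutathione lyase family protein, of an enzyme class that detoxifies methylglyoxal, and went from 27.8, 35.9 and 31.4 to 19.4, 12.9 and 14.4 CPM. Glutaredoxins rose in 4 of 5 cases.

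The group of abscisic acid, the hormone of water shortage and seed maturation, was formed with late embryogenesis abundant (LEA) genes included. Of its 27 genes 13 were higher and 4 lower, against 56.2% higher and 13.1% lower among described genes. The median log2 fold change of the group was 0.37, against 0.83 for described genes. The clearest change was in the CYP707A enzymes, which break abscisic acid down and of which 3 of 4 rose. CYP707A4 (GLYMA_07G212700) had 6.71, 7.65 and 7.09 CPM in CT and 72.5, 82.2 and 81.2 CPM in HS (3.45 ± 0.12, adjusted p = 7.47e-14, edgeR). The CYP707A4 gene GLYMA_02G132200 had 32.8, 31.9 and 30.4 CPM in CT and 119, 148 and 139 CPM in HS (2.1 ± 0.10, adjusted p = 4.82e-12, edgeR). Both rose to a like extent in WD + HS against WD, by 3.37 and 1.78. NCED3, the enzyme that makes the first committed step of abscisic acid synthesis, rose less, from 3.97, 4.17 and 3.58 to 8.20, 8.18 and 8.55 CPM for GLYMA_08G176300 (1.08 ± 0.14, adjusted p = 5.14e-06, edgeR). For the NCED3 gene GLYMA_15G250100 it went from 8.41, 8.24 and 6.61 to 12.0, 9.94 and 11.3 CPM (0.51 ± 0.14, adjusted p = 0.00865, edgeR), and that call was lost without CT replicate 3 (adjusted p = 0.053, edgeR). Of 6 protein phosphatase 2C genes, a family that includes brakes of abscisic acid signalling, 4 rose. The lower calls of this group were all LEA genes, a name shared by several unrelated families. No CYP707A, NCED or protein phosphatase 2C gene was called lower. Of 6 genes described as LEA hydroxyproline-rich 3 fell and 1 rose. GLYMA_06G303300, of this description, had 9.45, 9.96 and 9.39 CPM in CT and 0.678, 1.04 and 2.16 CPM in HS (-2.87 ± 0.34, adjusted p = 1.95e-06, edgeR).

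Jasmonate genes were mostly higher, 8 of 10, with 1 lower, against 56.2% higher and 13.1% lower among described genes. The median log2 fold change of the group was 0.89, near the 0.83 of the described genes. The lipoxygenases that feed jasmonate synthesis gave 5 of the higher calls. Lipoxygenase 3 (GLYMA_07G039900) went from 60.5, 59.8 and 67.2 to 109, 115 and 108 CPM (0.83 ± 0.08, adjusted p = 7.74e-08, edgeR), and lipoxygenase 2 (GLYMA_12G054700) from 20.4, 16.0 and 18.8 to 35.5, 37.3 and 43 CPM. The jasmonic acid carboxyl methyltransferase genes, which make the volatile methyl ester, had both signs, with GLYMA_14G072300 at 8.01, 6.93 and 7.39 CPM in CT and 3.39, 5.49 and 4.47 CPM in HS and GLYMA_02G054200 at 0.391, 0.724 and 0.303 CPM in CT and 2.03, 1.14 and 1.67 CPM in HS. Both calls were lost when single libraries were left out (adjusted p up to 0.0974 and 0.112, edgeR), and the 9 calls of the group became 4 without CT replicate 1 and 5 without HS replicate 1 or HS replicate 3.

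Auxin genes rose in 24 of 34 cases and fell in 1, against 56.2% higher and 13.1% lower among described genes. Their median log2 fold change was 0.95. Rises were counted for 9 of 15 SAUR genes, short-lived growth proteins, for 3 of 3 GH3 genes, which conjugate auxin, and for 3 of 4 auxin efflux carriers. The efflux carrier GLYMA_11G088600 went from 62.4, 78.5 and 78.8 to 187, 206 and 194 CPM (1.42 ± 0.12, adjusted p = 2.34e-08, edgeR), and the SAUR gene GLYMA_08G155700 from 18.9, 22.7 and 22 to 56.3, 58.0 and 53.8 CPM (1.40 ± 0.10, adjusted p = 9.24e-10, edgeR). The gene that fell, GLYMA_17G008000, had 27 reads in CT and 3 in HS, a 9.57-fold lower pooled level with an exact 95% interval of 2.94 to 49.3, and its call was lost without CT replicate 1, HS replicate 1 or HS replicate 2 (adjusted p between 0.0575 and 0.165, edgeR).

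The genes of ethylene, gibberellin, cytokinin and brassinosteroid showed no common direction, with 9 of 23 higher and 9 lower. Among described genes 56.2% were called higher and 13.1% lower. Ethylene-forming enzyme, which makes ethylene in the last step of its synthesis, fell in both of its more strongly expressed genes. GLYMA_15G112700 had 280, 314 and 248 CPM in CT and 73.4, 57.7 and 58.4 CPM in HS (-2.15 ± 0.10, adjusted p = 2.53e-12, edgeR). GLYMA_09G008400 had 31.8, 34 and 28.2 CPM in CT and 4.30, 6.68 and 6.98 CPM in HS (-2.38 ± 0.29, adjusted p = 2.48e-06, edgeR). The remaining gene, GLYMA_14G049500, rose from 2.54, 2.63 and 3.03 to 5.88, 7.20 and 7.96 CPM. Gibberellin 2-oxidases inactivate gibberellins, and of 3 tested 2 fell, GLYMA_15G248400 from 4.50, 4.07 and 3.03 to 0.226, 0.932 and 0.491 CPM and GLYMA_13G259500 from 3.00, 2.22 and 1.45 to 0.226, 0.621 and 0.393 CPM. Gibberellin 3-oxidase 1 (GLYMA_15G012100), which makes the active hormone, went from 36.9, 33.8 and 39.6 to 22, 27.3 and 23.6 CPM (-0.60 ± 0.17, adjusted p = 0.0124, edgeR), a call lost without HS replicate 1 (adjusted p = 0.0558, edgeR). A gibberellin-regulated gene, GLYMA_14G087200, rose from 4.89, 5.03 and 4.61 to 25.1, 28.5 and 24.7 CPM. Both cytokinin oxidase genes, which degrade cytokinins, were higher.

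All 8 described genes of light signalling and the clock rose, against 56.2% of the described genes as a whole. The group had a median log2 fold change of 1.08, against 0.83 for described genes. The phytochrome interacting factors are transcription factors that promote growth, and PIF4 is needed for growth at warm temperature in Arabidopsis. PIF4 (GLYMA_18G115700) went from 8.73, 8.96 and 9.94 to 19.9, 18.2 and 17.7 CPM (1.01 ± 0.14, adjusted p = 1.41e-05, edgeR). PIF3 (GLYMA_20G091200) went from 17.3, 16.3 and 14.7 to 38.8, 39.6 and 33.9 CPM (1.22 ± 0.11, adjusted p = 2.79e-08, edgeR), and PIF3 (GLYMA_10G142600) from 14.5, 13.2 and 11.8 to 28.1, 32.2 and 27.3 CPM. The weakly expressed PIF3 gene GLYMA_02G007000 had 4 reads in CT and 99 in HS, a 23.3-fold ratio of pooled levels with an exact 95% interval of 8.81 to 87.1. The one gene described as stomagen (GLYMA_18G152800), a peptide that raises the number of stomata in Arabidopsis, had 2.61, 3.71 and 1.76 CPM in CT and 7.35, 7.35 and 6.24 CPM in HS.

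The transcription factors of the WRKY, NAC, MYB and bHLH families were higher in 42 of 63 cases and lower in 2, with a median log2 fold change of 0.98. Among described genes 56.2% were called higher and 13.1% lower. The 4 families differed, with 21 of 22 bHLH genes, 8 of 12 WRKY genes and 10 of 17 MYB genes called higher but 3 of 12 NAC genes. WRKY40, which in Arabidopsis acts in defence and abscisic acid signalling, was represented by genes of low level. GLYMA_17G222300 had 0.521, 0.317 and 0.848 CPM in CT and 2.94, 1.61 and 3.44 CPM in HS (2.25 ± 0.66, adjusted p = 0.0126, edgeR), a call lost without CT replicate 2 or HS replicate 3 (adjusted p = 0.066 and 0.0625, edgeR). GLYMA_17G222500 had 0.456, 1.22 and 0.182 CPM in CT and 4.01, 3.68 and 4.18 CPM in HS (2.59 ± 0.48, adjusted p = 0.000283, edgeR). In the water-deficit libraries it went the other way, with 3.14, 1.82 and 1.55 CPM in WD and 0.624, 1.27 and 0.728 CPM in WD + HS (-1.31, adjusted p = 0.0466, edgeR). WRKY70 (GLYMA_04G223300), whose Arabidopsis relative balances salicylic acid and jasmonate defence, was 1 of the 2 that fell, from 3.32, 2.49 and 6.42 to 0.848, 1.66 and 1.18 CPM. The bHLH gene GLYMA_03G130600 went from 0.130, 0.362 and 0.364 to 1.58, 2.33 and 2.70 CPM.

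**Figure D5:**
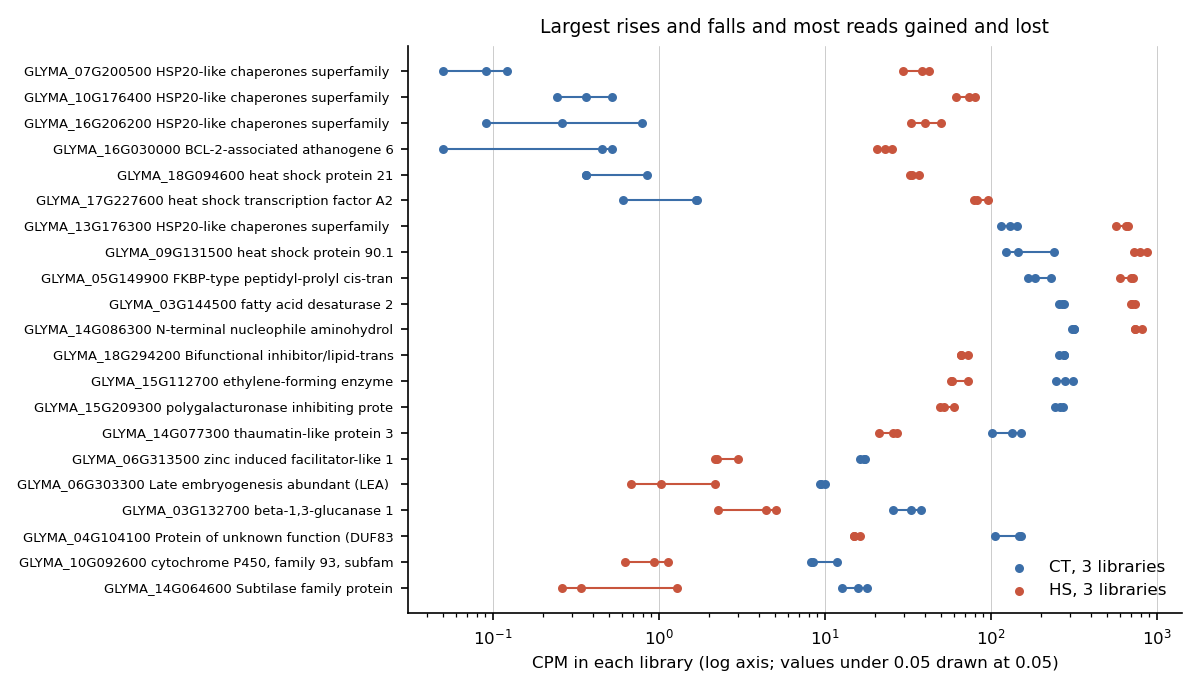
Level in CPM (log axis) in the 3 CT and the 3 HS libraries of 21 genes chosen by rule, the described genes with the largest rises and falls and with the most CPM gained and lost, with lines spanning the libraries of a group and values under 0.05 CPM drawn at 0.05. In all of them the CT and HS points do not overlap, as the rule required.

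Turning to the falls, MADS-box transcription factors, which set the identity of floral organs and meristems, were the group in which lower calls prevailed most. Of 7 tested genes 6 fell and 0 rose, against 13.1% lower and 56.2% higher among described genes. The median log2 fold change of the group was -1.87, and its summed level was 57.9, 49.5 and 58.5 CPM in CT and 21.8, 24.1 and 19.0 CPM in HS. A MADS-box gene with a K-box (GLYMA_20G153700) had 21, 17.8 and 21.1 CPM in CT and 5.03, 6.94 and 4.37 CPM in HS (-1.87 ± 0.19, adjusted p = 2e-07, edgeR). AGAMOUS-like 6 (GLYMA_16G200700), in Arabidopsis and grasses a regulator of floral organs, had 10.3, 9.06 and 10.3 CPM in CT and 2.49, 2.69 and 3.54 CPM in HS (-1.76 ± 0.21, adjusted p = 2.31e-06, edgeR). The fall of these MADS-box genes was smaller under water deficit, with log2 fold changes of -0.63 and -0.40 in WD + HS against WD, and the differences were called (adjusted p = 0.00762 and 0.0101, edgeR). AGAMOUS-like 8 (GLYMA_19G034600), in Arabidopsis the fruit and meristem regulator FRUITFULL, went from 3.39, 2.26 and 1.70 to 0.565, 0.777 and 0.590 CPM, and AGAMOUS-like 20 (GLYMA_18G224500), in Arabidopsis the flowering-time integrator SOC1, from 2.22, 2.40 and 5.33 to 0.735, 0.518 and 0.590 CPM. The K-box gene GLYMA_08G068200 lost its call without CT replicate 3 or HS replicate 3 (adjusted p = 0.13 and 0.112, edgeR). AGAMOUS-like 16 (GLYMA_14G183800) had 6.65, 7.43 and 7.33 CPM in CT and 11, 9.58 and 7.37 CPM in HS and was not called (adjusted p = 0.124, edgeR).

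The genes with the largest falls among described genes with at least 5 CPM on average were of mixed function. A subtilase (GLYMA_14G064600), a secreted serine protease, fell from 15.8, 12.6 and 17.9 to 0.339, 0.259 and 1.28 CPM (-4.58 ± 0.39, adjusted p = 2.41e-08, edgeR). A cytochrome P450 of family 93 (GLYMA_10G092600) fell from 8.54, 11.9 and 8.30 to 1.13, 0.621 and 0.934 CPM (-3.42 ± 0.34, adjusted p = 1.53e-07, edgeR). A protein of unknown function of the DUF833 family (GLYMA_04G104100) fell from 148, 153 and 106 to 14.9, 15.1 and 16.2 CPM (-3.14 ± 0.18, adjusted p = 6.77e-11, edgeR). Beta-1,3-glucanase 1 (GLYMA_03G132700), of an enzyme family that degrades callose and fungal walls, fell from 25.9, 33.2 and 38.2 to 2.26, 5.07 and 4.42 CPM (-3.04 ± 0.20, adjusted p = 5.99e-10, edgeR). The transporter zinc induced facilitator-like 1 (GLYMA_06G313500) fell from 17.3, 17.4 and 16.4 to 3.00, 2.23 and 2.16 CPM (-2.79 ± 0.17, adjusted p = 2.12e-10, edgeR). All of these had log2 fold changes below -2.7 in WD + HS against WD as well.

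Among the described genes that were called, had a mean of at least 5 CPM and did not overlap between the groups, the falls and gains in CPM were also ranked, which depend on the length of the transcript as well as on its number. Genes without a description were not ranked. Polygalacturonase inhibiting protein 1 (GLYMA_15G209300), of a family that blocks fungal pectin-degrading enzymes, had 262, 274 and 245 CPM in CT and 49.7, 60.0 and 52.0 CPM in HS (-2.27 ± 0.09, adjusted p = 2.3e-13, edgeR). A lipid transfer and 2S albumin family gene (GLYMA_18G294200) had 276, 258 and 275 CPM in CT and 66.2, 73.4 and 66.6 CPM in HS (-1.97 ± 0.08, adjusted p = 1.6e-13, edgeR). Thaumatin-like protein 3 (GLYMA_14G077300), of a defence protein family, had 152, 101.4 and 135 CPM in CT and 27.2, 21.1 and 25.7 CPM in HS (-2.39 ± 0.39, adjusted p = 7.28e-05, edgeR). The ethylene-forming enzyme GLYMA_15G112700 and the DUF833 gene GLYMA_04G104100, both given above, completed the 5 largest falls in this ranking. The 5 largest gains in it were those of HSP90.1 (GLYMA_09G131500), the small heat shock protein gene GLYMA_13G176300, the FKBP gene GLYMA_05G149900, fatty acid desaturase 2 (GLYMA_03G144500) and an Ntn hydrolase superfamily gene (GLYMA_14G086300). Fatty acid desaturase 2, which turns oleic into linoleic acid, had 275, 259 and 270 CPM in CT and 704, 708 and 744 CPM in HS (1.42 ± 0.09, adjusted p = 5.29e-10, edgeR), and the Ntn hydrolase gene went from 317, 317 and 309 to 741, 815 and 742 CPM.

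Genes of surface and storage lipids were lower more often than higher, with 24 of 49 called lower and 14 higher and a median log2 fold change of -0.98, against 13.1% lower and 56.2% higher among described genes. Lipid transfer proteins, which carry lipids to the cuticle and the pollen wall, share a fold and a description with 2S albumins, and of 18 genes with that joint description 10 fell and 2 rose. The largest change of the whole group was a rise outside these 18, that of lipid transfer protein 1 (GLYMA_03G040400), from 0, 0.0906 and 0.485 CPM in CT to 2.15, 1.66 and 1.03 CPM in HS (3.05 ± 0.61, adjusted p = 0.000655, edgeR). GDSL lipases, of which some build the cuticle, fell in 9 of 18 cases and rose in 7. GLYMA_20G221200 fell from 76.6, 88.1 and 81.1 to 20.7, 21.8 and 22.7 CPM (-1.92 ± 0.11, adjusted p = 5.33e-11, edgeR), and GLYMA_19G050900 from 25.6, 24.0 and 23.6 to 2.94, 5.02 and 6.24 CPM (-2.36 ± 0.21, adjusted p = 3.6e-08, edgeR). The summed level of the whole group moved little, from 1396, 1345 and 1338 to 1490, 1520 and 1520 CPM with the rise of fatty acid desaturase 2 (GLYMA_03G144500) included. The group formed by the words for nodules and seed storage had 12 of 27 lower and 6 higher, and 18 of its 27 genes were the same lipid transfer and 2S albumin genes.

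Cell wall genes were called in equal number in both directions, 25 higher and 25 lower of 79, with a median log2 fold change of 0.07. Among described genes 56.2% were called higher and 13.1% lower, with a median of 0.83. In WD + HS against WD, 15 cell wall genes were called higher and 36 lower, with a median of -0.48 against 0.49 for described genes. Within the cell wall group the kinds of enzyme differed. Enzymes that cut pectin (pectate and pectin lyases and polygalacturonases) fell in 11 of 17 cases and rose in 3, while all 7 cellulose synthase-like genes rose and xyloglucan enzymes rose in 8 and fell in 4 of 25 cases. A pectate lyase (GLYMA_01G042700) fell from 48.6, 53.3 and 41.3 to 15.1, 11.9 and 22 CPM (-1.55 ± 0.23, adjusted p = 3.21e-05, edgeR). The polygalacturonase GLYMA_10G103200, whose description places it in abscission zones, fell from 7.23, 6.25 and 5.39 to 0.509, 1.09 and 0.590 CPM (-3.09 ± 0.45, adjusted p = 1.95e-05, edgeR). Polygalacturonase 4 (GLYMA_02G016300) had 5, 12 and 12 reads in CT and 0 reads in each HS library, at least 1.92-fold lower against the level of 3 reads per library. Pectin methylesterase 3 (GLYMA_16G014100) fell from 14.9, 16.6 and 17.63 to 3.73, 4.35 and 4.52 CPM. Cellulose synthase like G2 (GLYMA_13G174300) rose from 3.13, 2.72 and 5.51 to 23.5, 26.4 and 21.1 CPM (2.66 ± 0.23, adjusted p = 3.02e-08, edgeR), and cellulose synthase-like B3 (GLYMA_12G191700) from 0.847, 0.226 and 0.606 to 2.60, 4.09 and 3.88 CPM. Inhibitors of invertase and pectin methylesterase, which the cell wall and sugar groups share (15 genes), fell in 6 cases and rose in 4, with GLYMA_09G036200 going from 4.69, 4.48 and 3.27 to 0.283, 0.155 and 0.197 CPM (-4.26 ± 0.55, adjusted p = 4.72e-06, edgeR).

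Sugar and water transport was mixed, with 20 of 49 higher and 12 lower, against 56.2% higher and 13.1% lower among described genes. The median log2 fold change of the group was 0.47, against 0.83 for described genes. In WD + HS against WD, 15 of these genes were called higher and 18 lower. Sucrose synthases, which cleave sucrose in sink organs, rose in 3 of 3 cases, and sucrose phosphate synthase 1F (GLYMA_17G109700), which makes it, from 136, 138 and 144 to 232, 243 and 240 CPM (0.77 ± 0.09, adjusted p = 1.02e-06, edgeR). The gene described as invertase H (GLYMA_19G227300) fell from 4.69, 5.98 and 3.82 to 0.0565, 0.104 and 0.442 CPM (-4.50 ± 0.72, adjusted p = 9.1e-05, edgeR). Plasma membrane aquaporins rose in 3 of 6 cases and fell in 1. Intracellular immune receptors and other disease resistance genes rose in 19 of 30 cases and fell in 1, against 56.2% higher and 13.1% lower among described genes. Their median log2 fold change was 0.89. The TIR-NBS-LRR gene GLYMA_12G132300 went from 23.9, 28.7 and 24.3 to 51.5, 48.2 and 46.5 CPM (0.92 ± 0.09, adjusted p = 2.26e-07, edgeR).

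Photosynthesis genes marked green tissue, and 3 of 11 were higher and 2 lower, against 56.2% higher and 13.1% lower among described genes. Rubisco activase (GLYMA_03G068100), which keeps the carbon-fixing enzyme open and is known to be heat-labile, rose from 7.56, 10.1 and 5.76 to 26.5, 35.3 and 27.0 CPM (1.91 ± 0.18, adjusted p = 1.09e-07, edgeR). A light-harvesting protein of photosystem II (GLYMA_16G165200) fell from 23.7, 21.1 and 19.7 to 6.67, 7.77 and 6.68 CPM (-1.61 ± 0.15, adjusted p = 6.61e-08, edgeR). The rubisco small chain gene GLYMA_19G046600 had 143, 61.2 and 41.0 CPM in CT and 165, 119 and 160 CPM in HS, and was not called (0.86 ± 0.39, adjusted p = 0.10, edgeR). Its call depended on the setting, as it was called without CT replicate 1 (1.52, adjusted p = 0.00718), without CT replicates 1 and 2 together (adjusted p = 0.0275), in a fit of the 6 compared libraries alone (adjusted p = 0.00794) and with no filter on low counts (adjusted p = 0.0139, all edgeR). The photosystem II protein A genes, of a kind normally encoded by the chloroplast genome, had 11.9, 15.1 and 0.727 CPM in CT and 1.19, 1.86 and 1.18 CPM in HS for GLYMA_13G028200. The CT libraries thus fell on both sides of the HS libraries, and the call (adjusted p = 0.0492, edgeR) was lost when any of 5 of the 6 libraries was left out, CT replicate 3 being the exception. GLYMA_13G028200 was also high in WD replicate 3 (5.79 CPM) and WD + HS replicate 3 (27.9 CPM). GLYMA_11G162200, not called, had 8.73, 8.47 and 0.545 CPM in CT and 4.45 and 9.04 CPM in those 2 libraries. The same libraries were high for the chromosome 13 stretch described below, and the cause was not tested.

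On the chromosomes, calls were spread evenly. By identifier, between 14.4% and 16.9% of the tested genes of each of the 20 chromosomes were higher and between 14.3% and 18.4% were lower. One stretch of chromosome 13 stood out, from GLYMA_13G012400 to GLYMA_13G023800. Its ends were set by the first and the last run of at least 5 neighbouring genes called at least 2-fold lower in this comparison. The share of lower calls in it therefore describes this choice. Of its 44 tested genes 40 were called lower, each at least 4-fold. Most of these lay in runs of 20, 13 and 5 neighbouring genes, and GLYMA_13G018200 and GLYMA_13G019400 lay outside the runs (adjusted p = 0.0459 and 0.0318, edgeR). None of the 44 has a description. Their summed level was 344, 539 and 21.3 CPM in CT and 32.2, 29.4 and 26.0 CPM in HS, so that CT replicates 1 and 2 were high and CT replicate 3 lay below the HS libraries. Among the other libraries WD replicate 3 (113 CPM) and WD + HS replicate 3 (421 CPM) were high, and 0 of the genes were called lower in WD + HS against WD (0 were called higher). The level of the stretch thus did not follow the temperature. Without the stretch the falls of at least 4-fold numbered 259, of which 232 (89.6%) kept their sign in WD + HS against WD, with medians of -2.58 and -1.88. The longest runs of risers, each at least 2-fold, were 4 neighbours from GLYMA_06G325400 to GLYMA_06G325700 and 4 from GLYMA_12G034100 to GLYMA_12G035000, among them 3 SAUR genes.

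Among genes with no description, GLYMA_05G011200 had one of the largest rises, from 0.912, 0.453 and 1.09 to 30.6, 53.4 and 20.2 CPM (5.45 ± 0.36, adjusted p = 5.45e-10, edgeR). GLYMA_01G151400 rose from 4.17, 4.98 and 4.24 to 44.8, 38.9 and 38.5 CPM (3.18 ± 0.15, adjusted p = 3.81e-12, edgeR). Of the falls, GLYMA_17G185800 went from 24.4, 29.4 and 20.8 to 4.35, 4.30 and 3.05 CPM (-2.68 ± 0.24, adjusted p = 4.09e-08, edgeR), and GLYMA_13G023800, of the stretch on chromosome 13, from 12.4, 18.0 and 1.09 to 0.678, 0.932 and 0.393 CPM. The deposited FPKM of GLYMA_17G185800 was near 0 in both groups, at most 0.281 in CT and 0.0767 in HS. On log2(FPKM + 1) of every gene above 0 its call was lost (-0.20, adjusted p = 0.0555, limma). The cause of this conflict between counts and FPKM was not tested.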

How the data were processed

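RNA from pooled closed flowers was sequenced in 12 libraries, 3 each for CT, HS, WD and WD + HS. Per the study's methods, Trim Galore was used for trimming and HISAT2 2.2.1 for alignment to the Ensembl Plants assembly of Glycine max, and the authors made the deposited FPKM values with Cufflinks. The deposited counts are raw reads per gene, and the counting program and its treatment of reads shared by similar genes are not given in the sources used here. Reads of overlapping and antisense genes cannot be told apart where counting without strand was used, which is not given either. There were 0 columns of other series. Columns were matched to samples by their labels.

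Counts were scaled to CPM by the effective library size and tested in R 4.3.3 with edgeR 4.0.16 (filterByExpr, minimum count 10; TMM; quasi-likelihood F test in 1 fit of 4 groups, without a replicate block, with 8 residual degrees of freedom). The p-values were adjusted over 38410 genes by the Benjamini-Hochberg method and genes with an adjusted p under 0.05 were called. Contrasts were HS - CT, WD + HS - WD and their difference. Each standard error (SE) was derived from the F statistic, as the size of the log2 fold change over the root of F. Where a group had no read, the fold was set against a floor of 3 reads per library. Where it had 1 to 3 reads in a library at most, pooled reads were compared with an exact 95% interval. Intervals and floors cover counting error only. Reads without molecular identifiers are not independent molecules. The fit was tested on simulated data.

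Descriptions of 2464 genes were taken from the study's supplementary lists, and no gene was described there as ascorbate peroxidase 1. The 20 groups were formed by words in them. The groups, the comparison and the genes were chosen with earlier results of these data known. The words NAM, TIFY and ethylene were narrowed after genes they wrongly matched were seen. Named genes were, among described genes called with a mean of at least 5 CPM and no overlap between HS and CT, the 6 largest rises and falls and the 5 that gained or lost most CPM, the 2 largest rises and falls without a description, in each group the member with the highest CPM and the called member with the largest change (all members where there were 3 or fewer), the longest runs of neighbouring genes, and the genes described as stomagen and HSFA2. These were 56 genes, and 76 more were chosen after their values were seen.

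Alternatives were upper-quartile factors, library size alone, other filters, a replicate block, a fit of only the compared libraries, DESeq2 1.42.0, limma-trend 3.58.1 on log2(FPKM + 1) and log2(FPKM + 0.1), a minimum fold and each library left out. Leaving out CT replicates 1 and 2 together and leaving out the chromosome 13 stretch were added after the data were seen. Adjusted p-values that DESeq2 gave as missing were left missing. The authors' own fold changes and p-values were not used. No genome was used, so that no sequence or coordinate is given.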

Additional observations from a re-analysis of the deposited data

Results flagged for a closer look

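The interaction was called for 2.95% of all genes tested. Many of the genes named here were chosen after their values were seen, so the share called among them describes that choice. The heat effect differed between well-watered and water-deficit flowers (interaction test of edgeR, adjusted p under 0.05) for 28 of the 132 genes named here. A negative value means that the log2 fold change was lower in WD + HS against WD than in HS against CT. Among chaperones and their partners these were HSP70B (GLYMA_02G205600, -1.49, and GLYMA_17G072400, -0.79), HSP70T-2 (GLYMA_01G238600, -0.76), HSP90.1 (GLYMA_09G131500, -1.28, and GLYMA_16G178800, -1.48), the FKBP genes GLYMA_03G086200 (-1.07), GLYMA_05G149900 (-0.90) and GLYMA_08G106700 (-1.12), and the small heat shock protein genes GLYMA_12G013100 (-1.03), GLYMA_14G099900 (-1.80) and GLYMA_18G094600 (-1.82). Of the HSFs, HSFA2 (GLYMA_04G052000, -1.22) and HSFA6B (GLYMA_10G029600, -1.56) were in this set. A small heat shock protein gene with the opposite sign was GLYMA_14G063800 (2.27), with 43.2, 36.8 and 30.7 CPM in HS and 141, 121 and 132 CPM in WD + HS. FKBP gene GLYMA_03G086200 was called lower in WD + HS against WD (163, 184 and 187 CPM in CT, 289, 315 and 302 in HS, 195, 141 and 163 in WD, 149, 119 and 134 in WD + HS).

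Raffinose synthase (GLYMA_05G003900, 0.85), galactinol synthase 1 (GLYMA_20G094500, 0.88) and NCED3 (GLYMA_15G250100, 1.32) rose more under water deficit. NCED3 had 20.1, 15.5 and 18.6 CPM in WD and 73.1, 62.9 and 55.4 CPM in WD + HS. The MADS-box genes GLYMA_16G200700 (1.36) and GLYMA_20G153700 (1.24) and polygalacturonase inhibiting protein 1 (GLYMA_15G209300, 1.11) fell less. Pectate lyase (GLYMA_01G042700, -2.25) fell more, with 37.1, 91.5 and 74.4 CPM in WD and 5.99, 4.59 and 4.07 CPM in WD + HS. Cellulose synthase like G2 (GLYMA_13G174300, -1.83), PIF3 (GLYMA_20G091200, -0.62) and a TIR-NBS-LRR gene (GLYMA_01G112200, -1.75) rose less. WRKY40 (GLYMA_17G222300, -5.26, and GLYMA_17G222500, -3.90) and the jasmonic acid carboxyl methyltransferase GLYMA_02G054200 (-4.21) rose in HS and fell in WD + HS against WD. GLYMA_13G023800 (5.62) belongs to the chromosome 13 stretch whose level followed single libraries.

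Features listed only in the FPKM table entered no comparison of the report. Every HS library exceeded every CT library in 3 of them and lay below in 77. Their summed FPKM was 60428, 111920 and 11625 in CT and 6543, 8567 and 6819 in HS, and 41529 in WD replicate 3 and 115820 in WD + HS replicate 3, which are the libraries that were high for the chromosome 13 stretch.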

How the results depend on the processing

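The count of genes called in HS against CT was 12230, and it was 9863 to 10811 when 1 library was left out (interaction 761 to 1581). It was 6106 without CT replicates 1 and 2 together and 2713 at a minimum of 2-fold. For WD + HS against WD it was 11592, and 3236 at that minimum. Leave-one-out counts for WD + HS against WD were 9518 to 11080. On FPKM with limma the interaction count was 605 (pseudocount 1), 701 (0.1) and 112 (every gene above 0), in place of 1132, and HS against CT split into 6901 higher and 4262 lower (0.1: 6837 and 4211; every gene: 6901 and 4141), WD + HS against WD into 3485 and 6666. The median interaction of all genes was -8.17e-05 on counts and -0.12 on log2(FPKM + 1). With DESeq2 12408 genes were called in HS against CT. With at least 10 counts in every library 27 of 27 small heat shock protein genes were called. Without CT replicates 1 and 2 together the calls fell to 7 HSF, 9 abscisic acid, 4 jasmonate, 13 auxin, 4 light, 18 WRKY, NAC, MYB and bHLH, 21 sugar and water, 9 disease resistance and 10 nodule and storage genes (small heat shock proteins: 42). Among named genes, 2183 gene values under the alternatives kept direction and side of the threshold, 105 lost and 17 gained a call and 10 changed sign. Sign changes without CT replicates 1 and 2 together were those of GLYMA_04G052000 (-0.10), GLYMA_06G202200 (-0.74), GLYMA_18G285100 (-0.72), GLYMA_11G162200 (0.91) and GLYMA_13G028200 (0.94). GLYMA_06G202200 ranged from -0.21 to 0.66 with 1 library left out (-0.19 without CT replicate 2, -0.01 without HS replicate 1) and GLYMA_18G285100 from -0.072 (-0.05 without CT replicate 2) to 1.15; the cause was not tested. With a replicate block the counts were 12008, 11273 and 1036 and the calls of GLYMA_02G054200 and GLYMA_18G287900 were lost (adjusted p = 0.051 and 0.0582, edgeR). The replicate numbers did not pair the CT and HS libraries, whose deviations correlated by -0.00455, -0.0647 and 0.0256 for numbers 1, 2 and 3 (WD and WD + HS: 0.0438, 0.0956 and 0.112, each library closest to its own number, a hint from the data only).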
